A study of Homo sapiens with 688 samples.

Results

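BT20 cells, an established line of triple-negative breast carcinoma, were exposed to crizotinib at 7.16 µM for 6 h and profiled beside cells that received the solvent DMSO for the same 6 h. Crizotinib accounted for 14 of the 688 samples of the series, namely 12 wells profiled by PLATE-Seq and 2 pools profiled by TruSeq, and the same numbers of DMSO wells and pools served as controls. The members were chosen by their labelled condition and place on the plate, where every condition held the same place in each of 12 runs of 8 wells, so that the drug and the place of a well cannot be told apart. PLATE-Seq captures polyadenylated RNA on an oligo(dT) plate and counts the 3′ ends of transcripts from barcoded wells, whereas TruSeq here sequenced RNA from pools of 6 wells each. The pools were made from the same wells, so the assays share the error between wells, and p-values measure only the spread between wells or pools of a single experiment. The other drugs on the plate, also given for 6 h with 12 wells each, were albendazole at 0.56 µM, aprepitant at 2 µM, bortezomib at 0.044 µM, gemcitabine at 0.194 µM, idarubicin at 0.084 µM and mitoxantrone at 0.18 µM.

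Crizotinib blocks the ATP site of receptor tyrosine kinases, chiefly MET, ALK and ROS1, and is used against lung cancers that carry fusions of ALK or ROS1. MET is the receptor of hepatocyte growth factor and drives ERK and AKT signalling in epithelial cells. Several of the genes described here are read as outputs of other pathways: the aryl hydrocarbon receptor, a ligand-activated transcription factor that induces cytochromes P450 of the CYP1 family, and TGF-β and BMP receptors, which act through SMAD proteins on genes such as PMEPA1 and ID1.

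Levels are given as CPM, the count of a gene scaled by the total count of its library without spike-ins, and differences as log2 fold changes of crizotinib minus DMSO with their standard errors from edgeR. A gene was called at a Benjamini-Hochberg adjusted p under 0.05 over all genes tested. With crizotinib, 64 of 5867 genes tested by PLATE-Seq were called higher, or 1.09%, and 56 were called lower, or 0.954%. In 19 of these 120 genes the crizotinib and DMSO wells did not overlap, which is 0.324% of all genes tested. TruSeq, with far deeper libraries and little spread between pools, called 3236 of 14970 genes higher, or 21.6%, and 3082 lower, or 20.6%. With a log2 fold change of at least 1 in size added to the rule, 205 genes, or 1.37%, were higher and 214, or 1.43%, were lower in TruSeq. The crizotinib pools were sequenced in lane 1 and the DMSO pools in lane 2. With lane as a term, informed by aprepitant as the only drug in both lanes, TruSeq calls numbered 1315 higher and 1288 lower of 14970 genes. These calls are the background for list counts with lane as a term.

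Total counts per well ran from 639779 to 907387 with crizotinib and from 367848 to 1071312 with DMSO, so that 3 counts corresponded to between 2.80 and 8.16 CPM, and the TruSeq pools of both conditions held between 16881740 and 26719454 counts. One DMSO well had the total of 367848, and a crizotinib well and another DMSO well held raised spike-in shares in runs without spike-in, of 0.728% and 1.31%. Without these 3 wells, 61 genes were called higher and 48 lower. The BT20 label was matched by EGFR, KRT5, KRT8, KRT18, EPCAM and CDH1, which were present in both assays. KRT19 had a median of 0 CPM in PLATE-Seq and 662 CPM in a crizotinib pool. Of ESR1 and PGR, the 2 genes listed as absent from triple-negative lines, 1 was high enough to be tested in TruSeq and was called lower. Of 7 markers of LNCaP and U87 cells, 2 were tested in TruSeq and 1 was called lower. With lane as a term edgeR called 0 of either list, with 1 of the first list lower at an unadjusted p under 0.05. Against the albendazole pools, of the same lane as the crizotinib pools, 1 of each list was called lower. PLATE-Seq tested 0 of either. Of the 9 markers of fibroblasts, endothelium and blood, 4 were high enough to be tested in TruSeq, 1 of which, COL1A1, was called higher at 27.4 and 30.3 CPM against 19.9 and 20.6 CPM. With lane as a term, or against the albendazole pools of the same lane, 0 of the 4 were called by edgeR (1 at an unadjusted p under 0.05 with lane as a term), and COL1A1 had log2 fold changes of 0.37 and −0.0026.

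The fall with the smallest adjusted p in both assays was that of CYP1B1, which oxidises estradiol and polycyclic aromatic hydrocarbons and is a classical target of the aryl hydrocarbon receptor. CYP1B1 lies on the minus strand of chromosome 2 at 38294116 to 38337044 in GRCh37. Its PLATE-Seq level ran from 85.4 to 178 CPM with crizotinib, with a median of 123 CPM, and from 518 to 835 CPM with DMSO, with a median of 627 CPM. Wells of the groups did not overlap, and the log2 fold change was −2.35 ± 0.11 (adjusted p = 1.1e-27). In TruSeq the pools held 217 and 211 CPM with crizotinib and 1129 and 1110 CPM with DMSO, a log2 fold change of −2.35 ± 0.04 (adjusted p = 1.7e-29). CYP1A1, a related monooxygenase encoded on chromosome 15 at 75011883 to 75017877 on the minus strand, was too low for the PLATE-Seq test, with well medians of 2.19 CPM with crizotinib and 18.9 CPM with DMSO. Its TruSeq pools held 20.3 and 20.1 CPM against 121 and 125 CPM, and its log2 fold change was −2.57 ± 0.07 (adjusted p = 4.3e-25). The promoter of CYP1A1 is shown because the gene carries the largest fall of its list, with the core of the dioxin response element, GCGTG on either strand, in capitals. The window is the 250 bases before the RefSeq start on the minus strand of chr15:74725529-74725778 in GRCh38.p14.
CYP1A1: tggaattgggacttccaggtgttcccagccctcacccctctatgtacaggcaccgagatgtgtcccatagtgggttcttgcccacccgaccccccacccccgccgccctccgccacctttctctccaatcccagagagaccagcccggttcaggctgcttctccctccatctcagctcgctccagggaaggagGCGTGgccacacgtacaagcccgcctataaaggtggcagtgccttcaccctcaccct

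The single match lay 57 bases before the start, and the same letters were found in 32.2% of 35116 such windows. Among the 12 windows of the aryl hydrocarbon receptor list that had an entry, 5 held the motif. The list itself, 11 genes with the receptor, its partners and its targets, had 4 members called higher and 7 called lower in TruSeq. The background was 21.6% and 20.6%. With lane as a term 2 were higher and 2 lower, beside 1315 and 1288 of 14970 over all genes. CYP1A2, another CYP1 gene, was near the limit of detection in TruSeq at 0.237 and 0.416 CPM against 0.711 and 0.868 CPM, and its fall of 1.20 ± 0.45 (adjusted p = 0.033) had an adjusted p of 0.51 with lane as a term. Other falls were those of ALDH3A1, UGT1A6 and NQO1, enzymes of detoxification, by 0.92, 0.22 and 0.17, none of which was called with lane as a term. AHRR, the repressor of the receptor, was higher at 59.9 and 61.1 CPM against 31.3 and 26.7 CPM (log2 fold change 1.09 ± 0.07, adjusted p = 1.3e-13), and AHR rose by 0.49 ± 0.08 (adjusted p = 3.2e-06). TIPARP, a mono-ADP-ribosyltransferase induced by the receptor, fell by 0.27 ± 0.06 (adjusted p = 0.00065) in TruSeq. ARNT, the receptor's DNA-binding partner, rose by 0.25. With lane as a term TIPARP had an adjusted p of 0.07, ARNT was not called, and CYP1B1, CYP1A1, AHRR and AHR were still called.

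PMEPA1, a membrane protein induced by TGF-β that limits SMAD signalling, fell in both assays as well. The gene lies on chromosome 20 at 56223448 to 56286592 on the minus strand. Its level was between 43.0 and 117 CPM with crizotinib, median 67.4, and between 209 and 298 CPM with DMSO, median 233. The groups did not overlap, and the log2 fold change was −1.80 ± 0.13 (adjusted p = 4.1e-17). TruSeq gave 100 and 109 CPM against 339 and 354 CPM, or −1.69 ± 0.05 (adjusted p = 2.5e-24). ID1, an inhibitor of basic helix-loop-helix factors and a direct BMP target at 30193086 to 30194318 on the plus strand of the same chromosome, was at 1.20 to 14.3 CPM in crizotinib wells, median 4.82, and 16.9 to 79.8 CPM in DMSO wells, median 33.5. These groups did not overlap either, although some crizotinib wells rested on few counts, and the log2 fold change was −2.54 ± 0.34 (adjusted p = 8.6e-08). In TruSeq ID1 was at 16.3 and 16.0 CPM against 53.9 and 54.9 CPM, or −1.71 ± 0.08 (adjusted p = 2.9e-18).

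**Figure D1:**
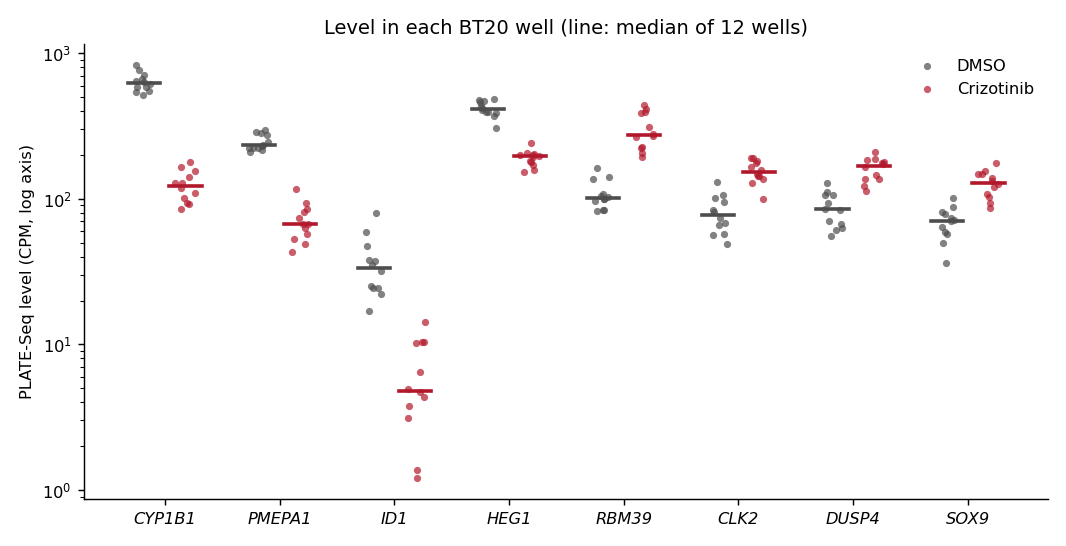
Level of 8 genes in each BT20 well by PLATE-Seq in CPM on a log axis, with a line at the median of 12 wells and colours for DMSO and crizotinib. CYP1B1, PMEPA1, ID1 and HEG1 were lower and RBM39 higher in every crizotinib well than in any DMSO well, whereas the groups overlapped for CLK2, DUSP4 and SOX9.

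Of the 26 TGF-β and BMP genes tested in TruSeq, 5 were higher and 7 lower, beside 21.6% and 20.6% of all genes. With lane as a term 3 were higher and 8 lower, beside 1315 and 1288 of 14970 over all genes. Past a log2 fold change of 1 in size, 1.37% of all genes were higher and 1.43% lower. In the list 0 were higher by that rule and 5 lower. Among them were PMEPA1, ID1, SMAD7 and SMAD6. The inhibitory SMADs were chosen after their values were seen: SMAD7 fell by 1.39 ± 0.16 (adjusted p = 2.9e-08) and SMAD6 fell by 1.33 ± 0.15 (adjusted p = 7.5e-09) on the log2 scale in TruSeq. SKIL and KLF10, also TGF-β targets, fell by 0.60 and 0.63. Others of the list rose, among them the latent TGF-β binding protein LTBP3 (0.58) and the repressor BHLHE40 (0.75). ID3 had a log2 fold change of −0.10 with an adjusted p of 0.28, and with lane as a term of −0.36 with an adjusted p of 0.016.

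HEG1, THBS1 and F3 were also lower. HEG1 is a transmembrane receptor with a mucin-like outer part. It was at 152 to 241 CPM, median 196, against 305 to 483 CPM, median 415, with no overlap and a log2 fold change of −1.14 ± 0.10 (adjusted p = 2.2e-14). THBS1, encoding the matrix protein thrombospondin-1, had medians of 110 CPM and 201 CPM and ranges of 65.8 to 151 and 146 to 289 CPM that met at their edges (−0.93 ± 0.13, adjusted p = 3.6e-07). F3, tissue factor, had medians of 31.4 and 68.2 CPM and overlapping ranges (−1.06 ± 0.21, adjusted p = 0.0009). In TruSeq the log2 fold changes were −1.19 for HEG1, −0.85 for THBS1 and −1.11 for F3. F3, THBS1 and AMOTL2 were the 3 members called lower among the 8 YAP targets tested by PLATE-Seq, with none higher. Over all genes PLATE-Seq called 0.954% lower. Without the 3 wells that stood apart 2 of the 8 were lower. TruSeq called 9 of 15 YAP targets lower and 1 higher, against 20.6% lower and 21.6% higher over all genes. With lane as a term 6 were lower and 0 higher, against 1288 lower and 1315 higher of 14970 over all genes. CYR61, a secreted matricellular protein, held 3.55 and 5.25 CPM against 16.3 and 19.5 CPM (−1.97 ± 0.15, adjusted p = 5.4e-11), and AJUBA, a LIM domain protein of junctions named after its values were seen, fell by 1.28. Of 19 genes of extracellular matrix and proteases, TruSeq called 10 lower and 2 higher, beside 20.6% and 21.6% of all genes. With lane as a term 7 were lower and 0 higher, beside 1288 and 1315 of 14970 over all genes. PLATE-Seq called 1 of 7 lower, THBS1, and 0 higher, beside 0.954% of all genes lower. THBS1 and CYR61 belong to this list and to the YAP targets.

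Actin transcripts fell in both assays. ACTB was at 2677 to 3761 CPM with crizotinib, median 3201, and at 3850 to 4789 CPM with DMSO, median 4451. The groups did not overlap, and the log2 fold change was −0.46 ± 0.06 (adjusted p = 1.9e-08), beside −0.48 in TruSeq. ACTG1, the other cytoplasmic actin, ran from 182 to 378 CPM, median 313, against 346 to 561 CPM, median 487. Its ranges overlapped, with −0.69 ± 0.10 in PLATE-Seq (adjusted p = 3.6e-07) and −0.81 ± 0.04 in TruSeq (adjusted p = 6.4e-16). These were the 2 of 27 tested members of the actin and adhesion list that PLATE-Seq called, beside 0.954% of all genes called lower. TruSeq called 13 of 29 lower and 2 higher, beside 20.6% and 21.6% of all genes. With lane as a term 9 were lower and 0 higher. The tropomyosin TPM1, the collagen receptor subunit ITGA2 and vinculin, VCL, fell by 0.59, 0.55 and 0.31 in TruSeq. TRIOBP, which binds and bundles actin filaments, had PLATE-Seq medians of 161 and 265 CPM without overlap (−0.85 ± 0.12, adjusted p = 2.2e-07) and fell by 0.48 in TruSeq. A CArG box, the site of serum response factor, starts 94 bases before the RefSeq start of ACTG1 and is set in capitals in the 250 bases before that start, from the minus strand of chr17:81512800-81513049 in GRCh38.p14.
ACTG1: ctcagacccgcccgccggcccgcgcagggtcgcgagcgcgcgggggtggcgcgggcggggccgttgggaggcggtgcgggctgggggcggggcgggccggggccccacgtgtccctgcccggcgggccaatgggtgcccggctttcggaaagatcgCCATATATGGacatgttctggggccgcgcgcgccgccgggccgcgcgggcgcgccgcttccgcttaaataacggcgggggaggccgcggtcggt

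Such a box stood in 7 of 46 windows of the actin list, or 15.2%, in 0 of 16 windows of the YAP targets, and in 1.16% of all windows. It is a match of letters and no evidence of binding.

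RHOBTB3 had PLATE-Seq medians of 75.5 and 158 CPM with no overlap, and a log2 fold change of −1.11 ± 0.14 (adjusted p = 5.3e-08) beside −1.09 in TruSeq. PROSER2 had medians of 23.9 and 52.5 CPM (−1.34 ± 0.27, adjusted p = 0.00078) and fell by 1.12 in TruSeq. RDH10, which oxidises retinol to retinaldehyde, had medians of 21.6 and 53.8 CPM (−1.11 ± 0.23, adjusted p = 0.0011) and fell by 0.80 in TruSeq. ALDH1A3, which makes retinoic acid from retinaldehyde and was chosen after its values were seen, had medians of 335 and 584 CPM (−0.77 ± 0.09, adjusted p = 4.4e-09) and a TruSeq log2 fold change of −0.92 ± 0.04. RARA, a retinoic acid receptor, was called in PLATE-Seq alone, at medians of 30.9 and 76.7 CPM (−1.08 ± 0.22, adjusted p = 0.0011), and its TruSeq value of −0.16 ± 0.07 had an adjusted p of 0.065. The difference of RARA between the assays was not called.

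Metallothioneins, small cysteine-rich proteins that bind zinc and copper, were represented by 4 tested genes in each assay. PLATE-Seq called MT1E and MT1X lower. MT1E was at 78.2 to 333 CPM, median 168, against 234 to 579 CPM, median 434 (−1.03 ± 0.23, adjusted p = 0.012). MT1X was at 21.1 to 74.6 CPM, median 43.4, against 42.9 to 136 CPM, median 90.3 (−0.93 ± 0.20, adjusted p = 0.0019). Wells of the groups overlapped for both. TruSeq gave −0.78 ± 0.09 for MT1E and −0.82 ± 0.09 for MT1X, and called MT2A lower too, at −0.20 ± 0.06 (adjusted p = 0.014), while MT1F had −0.03 ± 0.10 (adjusted p = 0.86). These genes are similar copies, so the split of reads among them is uncertain. The promoter of MT1X, the 250 bases before its RefSeq start on the plus strand of chr16:56682220-56682469 in GRCh38.p14, is shown with the core of the metal response element in capitals, TGCACNC or TGCGCNC on either strand.
MT1X: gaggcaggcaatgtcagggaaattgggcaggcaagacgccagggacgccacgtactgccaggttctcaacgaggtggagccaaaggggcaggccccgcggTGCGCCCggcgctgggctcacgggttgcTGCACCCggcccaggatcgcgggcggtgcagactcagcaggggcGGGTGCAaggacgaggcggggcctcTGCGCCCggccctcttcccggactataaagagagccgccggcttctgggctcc

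It held 4 such sites, 150, 122, 78 and 53 bases before the start. All 4 windows of the list held at least 1 site, and the share over all windows was 24.8%. Of the 4 genes tested in TruSeq, MT1X and MT2A had a window and MT1E and MT1F had none. The window of MT2A, which fell less than MT1X in TruSeq, held 7 sites.

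Among the genes that rose were RBM39 and the CLK kinases. RBM39, a splicing factor related to U2AF, was at 192 to 439 CPM with crizotinib, median 274, and at 83.1 to 162 CPM with DMSO, median 102. All crizotinib wells were above all DMSO wells, and the log2 fold change was 1.46 ± 0.13 (adjusted p = 9.5e-14), beside 1.03 ± 0.05 in TruSeq from 769 and 704 CPM against 384 and 354 CPM. CLK kinases phosphorylate SR splicing proteins. CLK2 had medians of 152 and 77.5 CPM in overlapping ranges (0.94 ± 0.14, adjusted p = 2.7e-06), and CLK1 had medians of 37.7 and 19.0 CPM (1.02 ± 0.25, adjusted p = 0.011). CLK3, SRRM1, SON, SFPQ and PTBP1 were chosen after their values were seen. CLK3 rose by 0.90 ± 0.20 (adjusted p = 0.0034). SRRM1, a coactivator of splicing, had medians of 211 and 119 CPM without overlap (0.91 ± 0.12, adjusted p = 7.3e-08), and SON, a scaffold of nuclear speckles, rose by 0.47 ± 0.10 (adjusted p = 0.0011), though scaling by spike-in RNA gave SON −0.08. The TruSeq log2 fold changes were 0.97 for CLK2, 0.52 for CLK1, 1.07 for CLK3, 0.50 for CLK4, 1.00 for SRRM1 and 0.37 for SON. Not all such genes rose: SFPQ, a splicing factor of paraspeckles, and PTBP1, a repressor of splicing, fell by 0.66 ± 0.15 (adjusted p = 0.0033) and 0.60 ± 0.13 (adjusted p = 0.0035) in PLATE-Seq, and by 0.21 and 0.20 in TruSeq. In the list of transcription and splicing regulators, TruSeq called 14 of 18 higher and 0 lower, beside 21.6% and 20.6% of all genes. With lane as a term 11 were higher and 0 lower. SRSF6 and SRSF2, both SR proteins, each rose by 0.64 in TruSeq. PLATE-Seq called CLK1 alone of the 17 it tested, and DESeq2 called 2 of them higher.

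Some of the strongest PLATE-Seq rises were smaller in TruSeq or turned, and others were larger there. WWP2, a ubiquitin ligase, had medians of 106 and 34.9 CPM without overlap (1.49 ± 0.17, adjusted p = 2.5e-09) and 0.25 ± 0.05 in TruSeq. WDR33, a subunit that reads the polyadenylation signal, had medians of 148 and 61.4 CPM (1.25 ± 0.16, adjusted p = 4.4e-08) and 0.32 ± 0.04 in TruSeq. MTRNR2L2, a humanin-like gene, rose by 1.49 ± 0.11 in PLATE-Seq and by 2.28 ± 0.05 in TruSeq, and TVAS5 by 0.91 ± 0.15 and 1.90 ± 0.05. NEAT1, the long RNA that builds paraspeckles, was at 765 to 1239 CPM, median 1027, against 377 to 638 CPM, median 470, without overlap (1.11 ± 0.09, adjusted p = 3.2e-15). In TruSeq the same gene was lower, at 84.2 and 90.9 CPM against 125 and 118 CPM (−0.44 ± 0.06, adjusted p = 2.7e-07). Of the 120 genes called by PLATE-Seq, 117 were tested by TruSeq and 109 were called there, 108 in the same direction and NEAT1 in the other. A test of the difference between the assays called 7 of 5856 genes, or 0.12%.

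**Figure D2:**
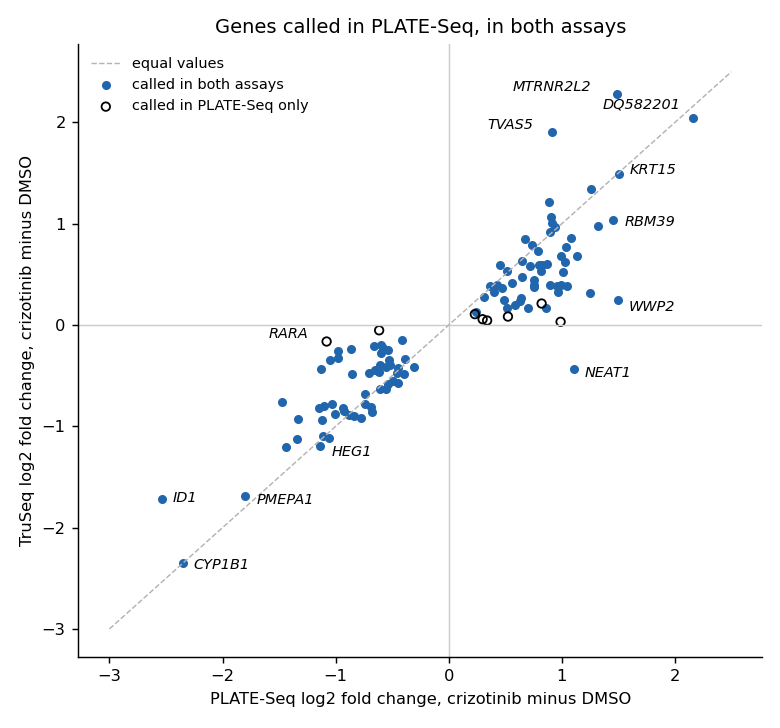
Log2 fold changes of crizotinib minus DMSO in PLATE-Seq (horizontal) and TruSeq (vertical) for the genes called by PLATE-Seq and tested by TruSeq, with a dashed line at equal values and open circles for the 8 genes not called in TruSeq. NEAT1 lies below 0 on the vertical axis at −0.44, and WWP2 lies near 0 at 0.25.

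Other called rises included DUSP4, SOX9, RHOB, RHPN2 and KRT15. DUSP4, a nuclear phosphatase of ERK, was at 113 to 211 CPM, median 168, against 55.6 to 128 CPM, median 84.4 (0.89 ± 0.14, adjusted p = 3.4e-06), and rose by 0.92 ± 0.05 in TruSeq from 120 and 119 CPM to 214 and 226 CPM. SOX9, a transcription factor of progenitor cells, had medians of 129 and 70.9 CPM (0.89 ± 0.15, adjusted p = 3.3e-05) and rose by 1.21 in TruSeq. RHOB, a small GTPase of endosomes, had medians of 93.6 and 40.8 CPM (1.26 ± 0.25, adjusted p = 0.0017), and RHPN2 had medians of 63.9 and 32.7 CPM (1.08 ± 0.22, adjusted p = 0.0011). KRT15, a keratin of basal cells, had medians of 25.0 and 10.7 CPM (1.50 ± 0.31, adjusted p = 0.0011). The TruSeq values were 1.34, 0.86 and 1.50. FOXA1 and SAT1 were chosen after their values were seen. FOXA1, a pioneer factor of luminal cells, rose by 1.03 ± 0.22 (adjusted p = 0.0022), and SAT1, which acetylates spermidine for breakdown, rose by 1.32 ± 0.29 (adjusted p = 0.0025). KLF6 and PPP1R15A, genes of immediate early and stress responses, each rose by 0.82 in PLATE-Seq and by 0.54 and 0.59 in TruSeq. CDH3, P-cadherin, fell by 0.62 ± 0.16 (adjusted p = 0.015), and HSPA8, a constitutive chaperone, fell by 0.39 ± 0.08 (adjusted p = 0.00078).

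Among the drug's own targets, MET was not called in either assay. It was at 22.2 to 78.5 CPM against 11.6 to 44.7 CPM in PLATE-Seq (0.47 ± 0.23, adjusted p = 0.36), and at 367 and 363 CPM against 405 and 396 CPM in TruSeq (−0.10 ± 0.04, adjusted p = 0.063). ALK had 0 counts in all 24 wells and at most 0.112 CPM in the pools of either condition. ROS1 did not exceed 0.449 CPM in these pools, and its fall of 1.71 ± 0.69 (adjusted p = 0.046) had an adjusted p of 0.41 with lane as a term. MST1R, a relative of MET, rose by 0.25 ± 0.06 (adjusted p = 0.0012) in TruSeq, with an adjusted p of 0.54 with lane as a term. Of the 14 tested members of the list of targets and adaptors, TruSeq called 2 higher and 3 lower, or 0 and 1 with lane as a term, and PLATE-Seq 0 of 7, with 0 at an unadjusted p under 0.05 and 0 by DESeq2. Among 20 genes of ERK feedback and ETS factors 8 were higher and 6 lower in TruSeq, beside 21.6% and 20.6% of all genes. With lane as a term 3 were higher and 4 lower, beside 1315 and 1288 of 14970 over all genes. DUSP4 was the single PLATE-Seq call.

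Cell cycle genes were counted by phase. Of 30 genes of G1/S and DNA replication, TruSeq called 23 lower and 0 higher, beside 20.6% and 21.6% of all genes. Their median log2 fold change was −0.30 against a median of all genes close to 0. With lane as a term 20 were lower and 0 higher. In PLATE-Seq edgeR called 0 of 25 tested, with 7 lower at an unadjusted p under 0.05 and 1 called lower by DESeq2. The PLATE-Seq median was −0.31, and 1 of 25 values was positive. CDC45, which opens replication forks with the MCM complex, was at 31.6 and 31.0 CPM against 52.4 and 54.7 CPM (−0.74 ± 0.06, adjusted p = 4.4e-11). CCNE2, cyclin E2, fell by 0.67, CDCA7 by 0.65 and RRM2, the small subunit of ribonucleotide reductase, by 0.59, where PLATE-Seq gave RRM2 −0.31 ± 0.10 (adjusted p = 0.11). CCND1, cyclin D1, fell by 0.58 in TruSeq. For mitosis, PLATE-Seq called 4 of 33 G2/M genes higher and 0 lower, or 3 without the 3 wells that stood apart, and these were the kinases TTK (0.87) and PLK1 (0.37), CKS2 (0.76), a small partner of CDK1, and PSRC1 (0.52), a spindle protein. Over all genes PLATE-Seq called 1.09% higher and 0.954% lower. The PLATE-Seq median of the G2/M list was −0.04, and 13 of 33 values were positive. TruSeq called 9 of 34 higher and 3 lower, beside 21.6% and 20.6% of all genes. With lane as a term 7 were higher and 1 lower. CDKN1A, the CDK inhibitor p21, was at 3.73 and 4.58 CPM against 12.1 and 12.0 CPM in TruSeq (−1.49 ± 0.13, adjusted p = 6.2e-11).

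**Figure D3:**
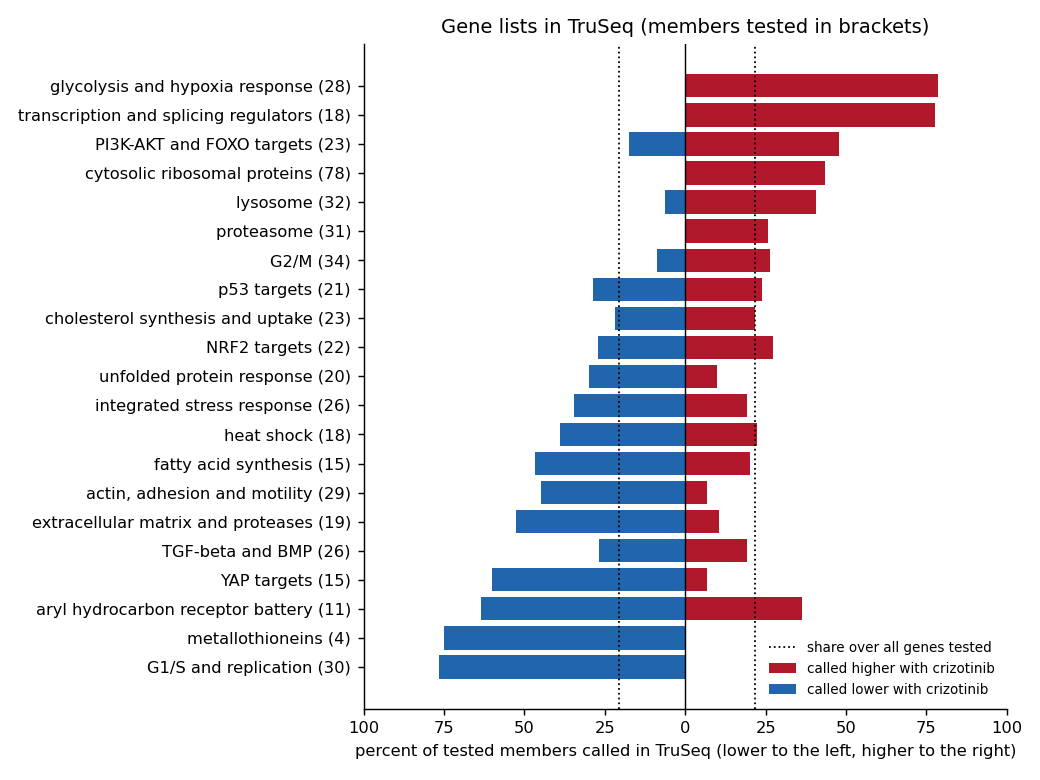
Percent of the tested members of each gene list called higher (right) or lower (left) with crizotinib in TruSeq, with the number tested in brackets and dotted lines at the shares over all genes, 21.6% and 20.6%. The G1/S and replication list and the metallothioneins have calls to the left only. The glycolysis, splicing, ribosomal protein and proteasome lists have calls to the right only.

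Genes of glycolysis and the hypoxia response were higher in TruSeq, with a median log2 fold change of 0.28. TruSeq called 22 of 28 higher and 0 lower, beside 21.6% and 20.6% of all genes. With lane as a term 11 were higher and 0 lower, beside 1315 and 1288 of 14970 over all genes. Against the albendazole pools of the same lane 15 were higher and 1 lower, beside 2887 and 2848 over all genes. In PLATE-Seq edgeR called 0 of 19, with 2 higher at an unadjusted p under 0.05 and 0 called by DESeq2. NDRG1, a stress-responsive gene induced by hypoxia, was at 155 and 144 CPM against 42.7 and 45.1 CPM (1.81 ± 0.06, adjusted p = 1.3e-22), while its PLATE-Seq median was 0 CPM in both groups. HK2, the inducible hexokinase, held 144 and 148 CPM against 74.4 and 77.1 CPM (0.98 ± 0.05, adjusted p = 2.8e-16). PFKFB4, which sets the level of fructose bisphosphate, rose by 0.90, and ADM, VEGFA, PDK1 and SLC2A1 by 0.85, 0.69, 0.53 and 0.45. The abundant enzyme LDHA had a log2 fold change of 0.02 with an adjusted p of 0.67. A promoter window of HK2 is shown as an example, on the plus strand of chr2:74834920-74835169 in GRCh38.p14 before the second of its RefSeq starts, with ACGTG on either strand, the core of the hypoxia response element, in capitals.
HK2: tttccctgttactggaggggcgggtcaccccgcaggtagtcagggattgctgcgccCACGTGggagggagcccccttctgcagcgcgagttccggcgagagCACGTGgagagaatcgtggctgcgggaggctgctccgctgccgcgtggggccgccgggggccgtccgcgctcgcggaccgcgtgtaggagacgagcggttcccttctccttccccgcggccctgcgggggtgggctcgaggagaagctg

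The 4 matches are 2 palindromes read on both strands. ACGTG was found in 19 of 42 windows of the list, or 45.2%, and in 18.5% of all windows. The E2F letters TTTCCCGC or TTTGGCGC were found in 12 of 36 windows of the G1/S list, or 33.3%, and in 1.93% of all windows.

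PI3K-AKT genes and FOXO targets moved in both directions. In TruSeq 11 of 23 were higher and 4 lower, beside 21.6% and 20.6% of all genes. With lane as a term 9 were higher and 4 lower. CITED2, a coregulator of transcription, rose by 1.31 ± 0.09 (adjusted p = 5.9e-14), the insulin receptor substrate IRS2 by 1.14 ± 0.11 (adjusted p = 1.9e-10) and CCNG2, cyclin G2, by 0.84 ± 0.08 (adjusted p = 2.9e-10), while FOXO1 itself fell by 1.04 ± 0.08 (adjusted p = 1.8e-12). Outside that list ARRDC3, an arrestin-like adaptor, rose by 1.12 ± 0.08 (adjusted p = 1.2e-12). SOCS3, the feedback inhibitor of cytokine receptors, held 0.889 and 2.34 CPM against 10.0 and 10.3 CPM (−2.58 ± 0.19, adjusted p = 1.2e-12), and BMF, a BH3-only protein, fell by 1.76 ± 0.12 (adjusted p = 1.1e-12). The lists of p53 targets, NRF2 targets, the unfolded protein response, cholesterol synthesis and the interferon response are given by their counts. By edgeR PLATE-Seq called 0 members of each. In the same order, those higher and lower at an unadjusted p under 0.05 were 1 and 0, 2 and 1, 0 and 0, 1 and 0, and 0 and 4, and DESeq2 called 1 member, of the interferon list. TruSeq called 5 higher and 6 lower of 21, 6 and 6 of 22, 2 and 6 of 20, 5 and 5 of 23, and 3 and 4 of 27, where 21.6% of all genes were higher and 20.6% lower. With lane as a term the counts were 2 and 4, 3 and 3, 1 and 2, 1 and 1, and 0 and 1. Over all 14970 genes they were 1315 and 1288. Ribosomal protein genes were higher in 34 of 78 in TruSeq, with 0 lower and a median of 0.07, but 0 of 78 were called by edgeR with lane as a term, where 3 were higher at an unadjusted p under 0.05. PLATE-Seq called 4 of 78 higher, beside 1.09% of all genes, or 2 without the 3 wells that stood apart.

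A few symbols took a large share of the PLATE-Seq counts. OK/SW-cl.16, the symbol with the most counts, was at 122465 to 148634 CPM with crizotinib, median 134764, and at 166354 to 193751 CPM with DMSO, median 175308, without overlap (−0.38 ± 0.04, adjusted p = 9.6e-10). STRF6 fell likewise, from a median of 57753 CPM to 42122 CPM (−0.44 ± 0.05, adjusted p = 4.7e-11), as did a pair of abundant genes with 1-character symbols (−0.31 ± 0.05 and −0.61 ± 0.08). In TruSeq OK/SW-cl.16 fell by 0.33 and STRF6 by 0.57. TVAS5, in contrast, was at 108485 to 245954 CPM with crizotinib, median 114635, and at 59266 to 100646 CPM with DMSO, median 65703 (0.91 ± 0.15, adjusted p = 0.00043). The highest value belonged to the crizotinib well with the raised spike-in share, and the next was 124331 CPM. DQ582201 ran from 6224 to 16819 CPM against 1509 to 4798 CPM (2.16 ± 0.19, adjusted p = 4.2e-08), and 4 humanin-like MTRNR2L symbols rose by 1.44 to 2.07. In TruSeq DQ582201 and MTRNR2L2 had higher levels with crizotinib too. MTRNR2L1 had 0 CPM in the TruSeq pools of both conditions. MTRNR2L8 had 0.237 and 0.104 CPM there against 0.112 and 0.0394 CPM. Humanin-like genes are near-identical nuclear copies of mitochondrial ribosomal RNA, so their reads cannot be assigned with certainty. Without the 6 symbols with the most counts, 113 genes were called.

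**Figure D4:**
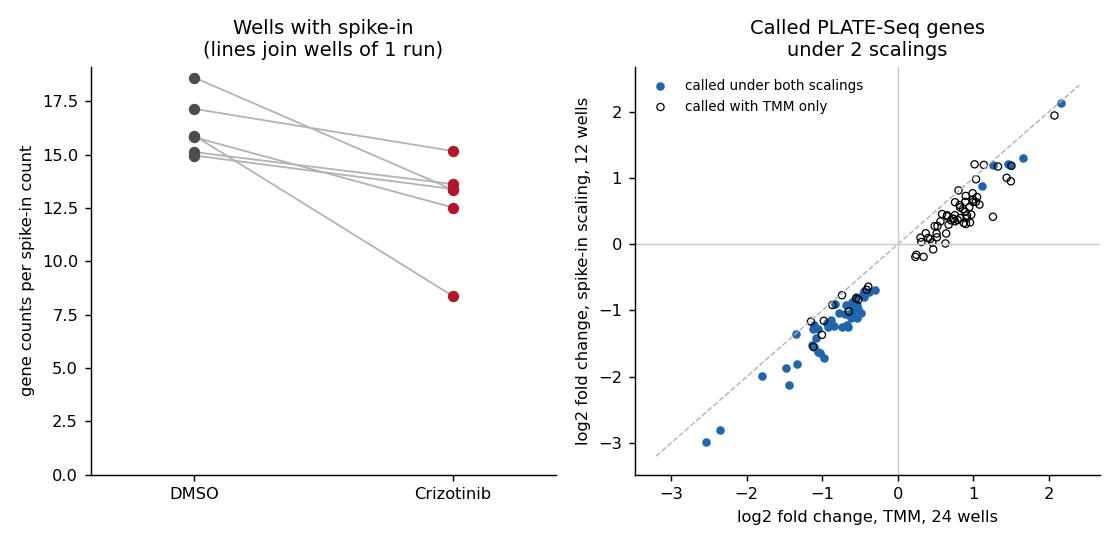
Left, gene counts per spike-in count in the 6 crizotinib and 6 DMSO wells of the runs with spike-in, with lines that join wells of a run. Right, log2 fold changes of the called PLATE-Seq genes with TMM on 24 wells against spike-in scaling on 12 wells, where filled points are called under both. All 6 lines fall from DMSO to crizotinib, and most points on the right lie below the dashed line of equal values.

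Spike-in RNA had been added to every second run, that is to 6 wells of each condition. Crizotinib wells held 8.38, 12.5, 13.4, 13.4, 13.6 and 15.2 gene counts per spike-in count and DMSO wells 15.0, 15.1, 15.8, 15.9, 17.1 and 18.6. The means were 12.7 ± 2.31 and 16.3 ± 1.39 (SD, n = 6), a difference of −21.6% (two-sided exact permutation test, p = 0.00649), and the ratio was lower in 6 of 6 runs. Without the lowest crizotinib well, p was 0.0130 in the same exact permutation test. The other drugs spanned 9.52 to 22.4. Fewer cells and less RNA per cell cannot be told apart in such a ratio. In TruSeq the pools held 165 and 143 gene counts per spike-in count with crizotinib and 274 and 178 with DMSO. Pools of the other drugs spanned 150 to 351. On the 12 wells with spike-in, the median log2 fold change of all genes was 0.006 with TMM and −0.34 with scaling by the spike-in. TMM called 22 genes higher and 20 lower in these 12 wells, and spike-in scaling 6 higher and 138 lower. In all 24 wells TMM called 64 and 56. TMM values are relative to the bulk of the RNA. Of the 56 TMM falls, 45 were called lower with the spike-in, and of the 64 TMM rises 6 were called higher. The last were DQ582201, MTRNR2L1, MTRNR2L2, RBM39, WDR33 and NEAT1. On the same spike-in scale the median of the ribosomal protein list was −0.24 and that of the glycolysis list −0.09, both above the median of all genes and below 0, where TMM gave 0.09 for each.

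The total count per well, 754707 with crizotinib and 886250 with DMSO on average, differed by −131543 (two-sided permutation test, adjusted p = 0.0860) and was lower in 11 of 12 runs. The permutation tests of totals and detected genes did not keep wells within their runs, so differences between runs add to their spread. Without the DMSO well of low depth the difference was −178671 (adjusted p = 0.0016). At a common depth of 367848 counts, 10111 ± 110 and 10192 ± 278 genes were detected (SD, n = 12, permutation test, adjusted p = 0.370), and without that well the difference was −142 genes (permutation test, adjusted p = 0.0370).

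The comparison with the other drugs asked whether a level seen with crizotinib differed from that with each of the 6, in a fit of all 96 wells. Of 8806 genes, 172 were called against albendazole (1.95%), 155 against aprepitant (1.76%), 534 against bortezomib (6.06%), 166 against gemcitabine (1.89%), 467 against idarubicin (5.3%) and 368 against mitoxantrone (4.18%). These comparisons share the crizotinib wells. Mean CYP1B1 was 125 ± 30.2 CPM with crizotinib (SD, n = 12) and lay between 435 and 638 CPM in the other conditions, DMSO included. It was lower with crizotinib against 6 of 6 drugs, by log2 fold changes of −2.33 to −1.92. PMEPA1 averaged 71.0 ± 21.0 CPM against 170 to 246 CPM and was lower against 6 of 6. ID1, at 6.27 CPM, was lower against 6 of 6 too, where idarubicin was the nearest at 16.1 CPM. HEG1, RHOBTB3, RDH10, F3, MT1X and THBS1 were also lower against 6 of 6, while MT1E was lower against 3 and RARA against 2. CYP1A1 was too low for the test of crizotinib against DMSO wells but passed the filter in the fit of all 96 wells. There it was lower against 6 of 6, with means of 3.78 CPM with crizotinib and 16.6 to 24.7 CPM with the other drugs. Its crizotinib values rest on few counts. Among the rises, RBM39, CLK2, DUSP4, SOX9, WWP2, WDR33, SRRM1, RHPN2 and DQ582201 were higher against 6 of 6, RHOB, CLK3 and KRT15 against 5, and CLK1 against 2. RBM39 averaged 301 CPM with crizotinib and 108 to 151 CPM elsewhere, and DUSP4 161 CPM and 51.4 to 86.1 CPM. NEAT1 was higher against 5 drugs and lower against bortezomib, which had a mean of 1243 CPM beside 1046 CPM with crizotinib.

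**Figure D5:**
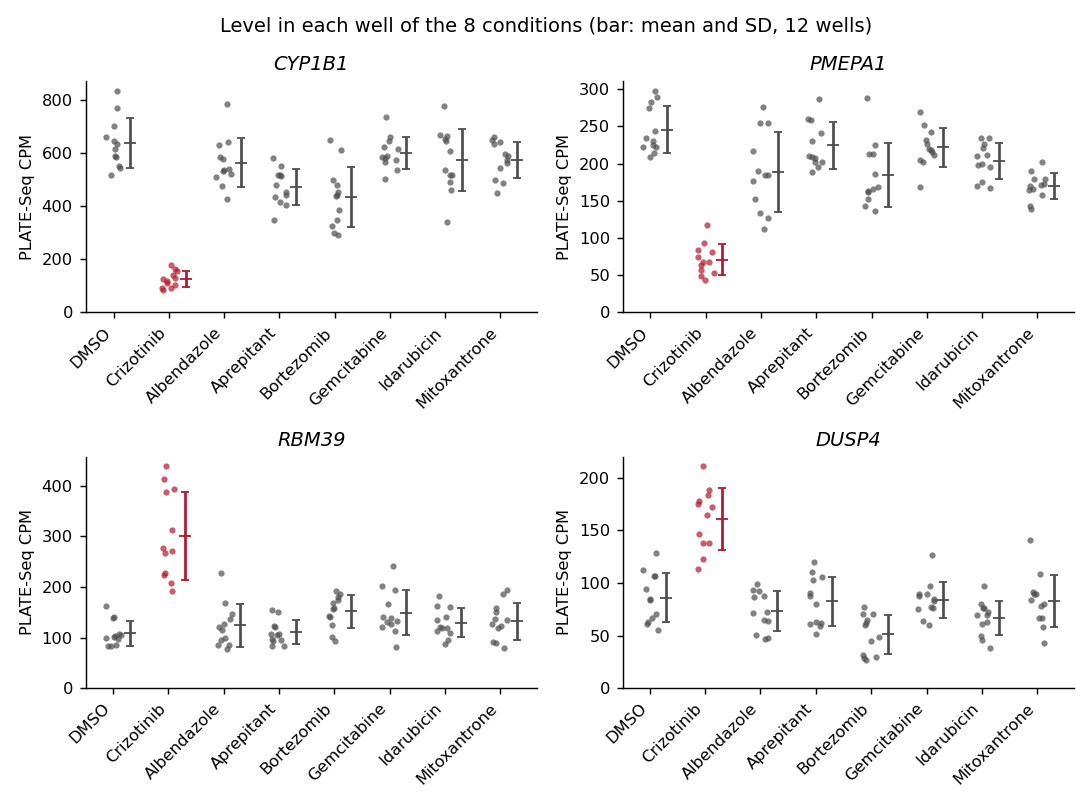
PLATE-Seq level in CPM of CYP1B1, PMEPA1, RBM39 and DUSP4 in each well of the 8 conditions, with the mean and SD of 12 wells beside the points and crizotinib in colour. Crizotinib has the lowest mean of CYP1B1, 125 CPM, and of PMEPA1, 71.0 CPM, and the highest of RBM39, 301 CPM, and DUSP4, 161 CPM.

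In U87 glioblastoma cells crizotinib was given at 0.181 µM for 24 h in 1 well on each of 2 plates, so dose, time and cell line all differ from BT20 and the values are set side by side without a test. CYP1B1 was at 276 and 461 CPM in the crizotinib wells, beside 243 and 190 CPM in the DMSO wells of the first plate and 379 and 397 CPM in those of the other. PMEPA1 was at 159 and 200 CPM beside 177 and 161 CPM and 180 and 176 CPM. ID1 was at 589 and 563 CPM beside 651 and 606 CPM and 502 and 395 CPM. Some genes that fell in BT20 had higher levels in both U87 crizotinib wells than in the DMSO wells of their plate. HEG1 was at 409 and 539 CPM beside 285 and 291 CPM and 362 and 322 CPM, MT1X at 137 and 247 CPM beside 124 and 82.5 CPM and 151 and 113 CPM, and RARA at 60.7 and 55.5 CPM beside 35.9 and 47.4 CPM and 28.9 and 34.8 CPM.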

How the data were processed

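BT20 cells were profiled in 96 PLATE-Seq wells and 16 TruSeq pools. The authors deposited raw counts per gene symbol, and the counts are not normalized; for PLATE-Seq, reads were split by barcode and mapped with BWA to hg19, and uniquely mapped reads in the sense direction were counted. How TruSeq reads were counted is not given in the sources used here. All 28430 symbols were read, 0 columns of per-sample values lacked a sample, and the 92 spike-in rows were kept out of totals and tests.

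Genes were tested by quasi-likelihood in edgeR 4.0.16 under R 4.3.3 (robust fit, TMM, filterByExpr), on the 24 wells of crizotinib and DMSO, on all 16 pools, and on all 96 wells for the other drugs. P-values were adjusted by Benjamini-Hochberg at 0.05. The assays were compared with limma 3.58.1 (voom, interaction). Totals and spike-in ratios were compared by permutation in SciPy 1.17.1, with 100000 resamples or, for 6 against 6, all 924 splits. Wells were permuted without regard to runs. The level of 3 counts was given in CPM for scale and was not used as a filter. The fits were tested on simulated data. Alternatives were DESeq2 1.42.0, RLE, other filters, a run block, a lane term and the removal of wells.

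Named genes were CYP1B1, PMEPA1, drug targets, the 6 symbols with the most counts, the 12 largest called rises and falls of PLATE-Seq (mean of at least 50 CPM in the higher group, all 12 crizotinib wells on a single side of the DMSO median), the 6 largest of each in TruSeq among genes not tested in PLATE-Seq (at least 5 CPM), and up to 4 called members of each of 45 lists (the most abundant where none was called). Members and lists were chosen with earlier results of these data known. The spike-in scaling and ratio, and the removal of 3 wells, were chosen after seeing the data. Promoter sequences are from RefSeq, GRCh38.p14, and gene positions from GENCODE on GRCh37. The promoter table was matched by symbol, and CYP1B1, MT1E and MT1F were among the genes without an entry. Results on some genes are not reported here.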

Additional observations from a re-analysis of the deposited data

Results flagged for a closer look

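The difference between crizotinib and DMSO differed between PLATE-Seq and TruSeq, by the interaction of assay and drug in limma, for 7 genes. Values are PLATE-Seq minus TruSeq on the log2 scale. They were 1.57 for NEAT1 (adjusted p = 1.97e-13), 1.35 for WWP2 (adjusted p = 1.61e-06), 0.93 for WDR33 (adjusted p = 0.00369) and 0.72 for FNBP1 (adjusted p = 0.0430), which had more positive values in PLATE-Seq. They were −0.75 for MTRNR2L2 (adjusted p = 0.000188), −1.02 for TVAS5 (adjusted p = 0.0281) and −0.47 for DDX39B (adjusted p = 0.0416), where the PLATE-Seq value was the lower. MTRNR2L2 and TVAS5 rose in both assays, and the rise was smaller in PLATE-Seq. The cause of these differences was not tested. No group of spiked wells had a well past Dixon's 95% value, the nearest being the lowest crizotinib well with a gap of 0.611 of the range.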

How the results depend on the processing

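The 120 PLATE-Seq calls became 180 with DESeq2, 121 with RLE, 145 at a minimum of 20 CPM and 176 in a fit of all 96 wells. They became 371 without a filter, 42 in the spiked runs with TMM and 50 in the runs without spike-in, each with 12 wells in the last pair. The cause of the larger count without a filter was not tested. Leaving out each well in turn gave 109 to 140 calls. Wells of a run were not paired by the labels. The correlations of their deviations over 5867 genes were −0.021 to 0.031 over 12 pairs, with 0 above 0.1. These correlations do not measure an effect of the run on totals or on few genes, and spike-in was added to every second run. With the replicate block 129 genes were called. The TruSeq count of 6318 became 2603 with lane as a term, and leaving out each pool gave 4811 to 5417, where a lone pool was assumed to vary like the other groups. Without a filter, the calls against albendazole, aprepitant and gemcitabine became 264, 252 and 276. Without the DMSO well of low depth, the difference in total count was −178671 (permutation test, adjusted p = 0.0016) and in genes at common depth −142 (adjusted p = 0.0370). Among the genes named by rule, directions that turned with spike-in scaling were those of RPS13 (−0.19) and RPS20 (−0.16). BBC3 (−0.032) turned with lane as a term, and RPS20 (−0.010) and COL1A1 (−0.0026) against albendazole. SON, chosen after its values were seen, turned with spike-in scaling too. Of the 64 called rises, 60 had a positive value with that scaling. With lane as a term, 37 of 145 named TruSeq genes were no longer called. PLATE-Seq depth limits genes below about 8.16 CPM.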
